A study of Mus musculus with 6 samples.

Results

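The abundant mid-length lncRNA loci of the mouse zygote are the subject here: loci of intermediate genomic span that stood at high levels in RNA sequencing of embryos at the pronucleus stage. A locus was included if its mean over all 6 libraries was at least 400 RPKM (a read number corrected for transcript length and for library size) and its end minus its start was at least 2000 bp and under 50000 bp. Loci whose coordinates were listed on more than 1 row were left out, and so was the ribosomal RNA region of chromosome 17 (39979942 to 39985774, mm9). This left 294 of the 3307 loci in the tables (8.89%), and 294 of the 2384 mid-length loci with coordinates of their own (12.3%). Of the 430 loci at or above 400 RPKM, 80 were too long, 30 too short, 25 shared their coordinates and 1 lay in the ribosomal RNA region. The level chose these loci, so their high RPKM is a description and not a result.

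RNA came from zygotes of C57BL/6 mice, and 3 libraries represent normal gravity (control) and 3 simulated microgravity. The labels give no other treatment, genotype or age. How microgravity was simulated, for how long, and how many zygotes went into a library were not stated in the sources used here. Replicates of a group carry 1 shared prefix in their titles, and nothing says that they came from separate sets of embryos. The p-values below therefore cover the spread among these 6 libraries alone, and it may be technical. Fewer zygotes and less RNA per zygote cannot be told apart here, since RPKM is corrected for library size and shows neither. The question of the study, from its title, was how lncRNA levels at this stage differ between normal gravity and simulated microgravity.

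A long non-coding RNA is a transcript of gene-like length with no evident protein product. At the pronucleus stage the egg has been fertilised, but the genomes of the parents have not yet come together and each occupies its own pronucleus. Most RNA of such a zygote was made by the growing oocyte and stored, and transcription from the new embryo's own genome is only starting. Mouse oocytes and early embryos are known for many lncRNAs that begin in long terminal repeats of retrotransposons. The tables pair no locus with a gene name, and the annotation at hand is of another genome build (GRCm38), so loci are named by their assembly identifiers and mm9 coordinates. Strand, exon structure, sequence and marker genes of the zygote or of other cells were not analysed here.

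Summed over all loci, RPKM came to between 892582 and 928980 per library. The number of reads behind these values is unknown. Ratios of low values between libraries were searched for steps of whole reads. A clear peak appeared in 1 of 15 pairs, microgravity replicates 1 and 3 (11.1 SD, against at most 5.02 SD in the other pairs). Read as such a step, it would put the RPKM of a single read in replicate 3 at 0.999 times that in replicate 1. Whether single reads made the peak was not tested. Reads per locus could not be recovered, so no counting error is given. Microgravity replicate 2 stood apart: the ribosomal RNA region took 5.99% of its summed RPKM, against 3.09% to 4.22% in the others, and its rank correlations with the control libraries were the lowest of all pairs.

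The 294 loci held a stable part of the measured lncRNA. Their share of the summed RPKM was 43.4%, 43.4% and 43.9% in control replicates 1, 2 and 3, and 44.0%, 42.4% and 43.3% in microgravity replicates 1, 2 and 3. The ranges of the groups overlapped, and the lowest share was that of microgravity replicate 2. The control mean was 43.5% ± 0.319 (SD, n = 3) and the microgravity mean 43.2% ± 0.776 (SD, n = 3), a difference of -0.32 percentage points (p = 0.6 in a two-sided exact permutation test, where 3 against 3 libraries cannot go below 0.1). The difference was 0.086 percentage points without microgravity replicate 2, and 0.024 with the ribosomal RNA region left out of the sums. RPKM is scaled by length, so this is a share of length-corrected abundance and not of reads.

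Within this set, levels were concentrated in few loci. The median locus had a mean of 829 RPKM, against 72.8 RPKM over all loci in the tables. A mean of 1000 RPKM or more was reached by 111 loci, of 2000 or more by 44, of 5000 or more by 7 and of 10000 or more by 4, while 97 lay between 400 and 600 RPKM. The 10 most abundant held 21.4% of the summed RPKM of the set, and 52 loci were needed to reach 50%. The share of the 10 highest loci of each library was 21.3% ± 0.473 (SD, n = 3) for control and 21.7% ± 0.271 (SD, n = 3) for microgravity, and did not differ detectably (exact permutation test, two-sided, p = 0.4).

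The most abundant locus was the same in every library. XLOC_025258 on chromosome 6 (89125622 to 89162622, mm9) had 19162, 18826 and 20272 RPKM in control replicates 1, 2 and 3, and 20043, 16715 and 18640.2 RPKM in microgravity replicates 1, 2 and 3. The lowest of these values, in microgravity replicate 2, still exceeded every value of every other locus in the set. Its log2 difference, microgravity minus control on the log2(RPKM + 1) scale, was -0.08 ± 0.08 (SE; limma, adjusted p = 0.803). The groups overlapped, and the direction turned with quantile normalization.

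Below it, a group of 3 loci held ranks 2 to 4 in all 6 libraries. XLOC_000947 on chromosome 1 (64726494 to 64737441) had 11014, 11754.5 and 10585 RPKM in control and 11875, 11742 and 10864 RPKM in microgravity, in replicate order, with overlapping groups. XLOC_013884 on chromosome 17 (64863619 to 64905080) had 10559.5, 10342.0 and 10337 RPKM in control and 11129, 12269 and 12359.5 RPKM in microgravity. XLOC_019571 on chromosome 3 (34608663 to 34615661) had 8994, 9322 and 9586 RPKM in control and 12150.1, 10749 and 10810.0 RPKM in microgravity. In the last 2 of these loci every microgravity value lay above every control value, and neither passed the adjusted threshold (limma, adjusted p = 0.616 and 0.498). Values of the 3 loci overlapped one another, so their order was not fixed: each held ranks from 2 to 3 or from 2 to 4. All of them exceeded 8348 RPKM, the highest value of any less abundant locus.

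XLOC_027151 on chromosome 7 (122091922 to 122127323) ranked 5 by mean and was the one locus among the 15 most abundant with all microgravity values below all control values. It had 8348, 8076 and 7101 RPKM in control and 6758, 4941 and 5359 RPKM in microgravity. Its rank moved between 5 and 9. The log2 difference was -0.47 ± 0.12 (SE; limma, adjusted p = 0.497), the smallest p of all 294 loci. With quantile normalization it was -0.29, and the log2 differences of XLOC_013884 and XLOC_019571 were 0.023 and 0.071 in place of 0.19 and 0.27. That normalization gives each library the same values by rank, so a difference in level can shrink by construction where rank changes little. Whether it did so at these loci was not tested.

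The next 10 loci by mean averaged between 3721 and 5803 RPKM, and their order was loose. XLOC_010870 on chromosome 15 (90184091 to 90198766) averaged 5803 RPKM and ranked from 5 to 8. XLOC_007171 on chromosome 12 (120499582 to 120502748), XLOC_025122 on chromosome 6 (50856245 to 50860734), XLOC_019487 on chromosome 3 (8679468 to 8715332) and XLOC_012559 on chromosome 16 (78251159 to 78295858) had means of 5086, 4932, 4851 and 4761 RPKM. Values of these 4 loci overlapped one another: XLOC_025122 alone ran from 4164 to 5648 RPKM, both in control libraries. XLOC_031163 on chromosome 9 (120699801 to 120704281) averaged 4487 RPKM and XLOC_000286 on chromosome 1 (76485587 to 76497832) 4341 RPKM, each with overlapping groups. XLOC_008337 on chromosome 13 (32471754 to 32478926) had 3924, 4032 and 4145 RPKM in control and 4455, 5484 and 4669 RPKM in microgravity. Its groups did not overlap, and the log2 difference was 0.27 ± 0.10 (SE; limma, adjusted p = 0.616). XLOC_020719 on chromosome 4 (11049666 to 11054642) averaged 3721 RPKM and kept ranks from 14 to 18.

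One locus among the 15 varied more than the rest. XLOC_000306 on chromosome 1 (85108063 to 85110412) had 3524, 2676 and 4862 RPKM in control and 3917, 3306 and 4185 RPKM in microgravity. Its highest and lowest values were both control libraries, 1.82-fold apart, and its rank moved from 9 to 30.

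**Figure D1:**
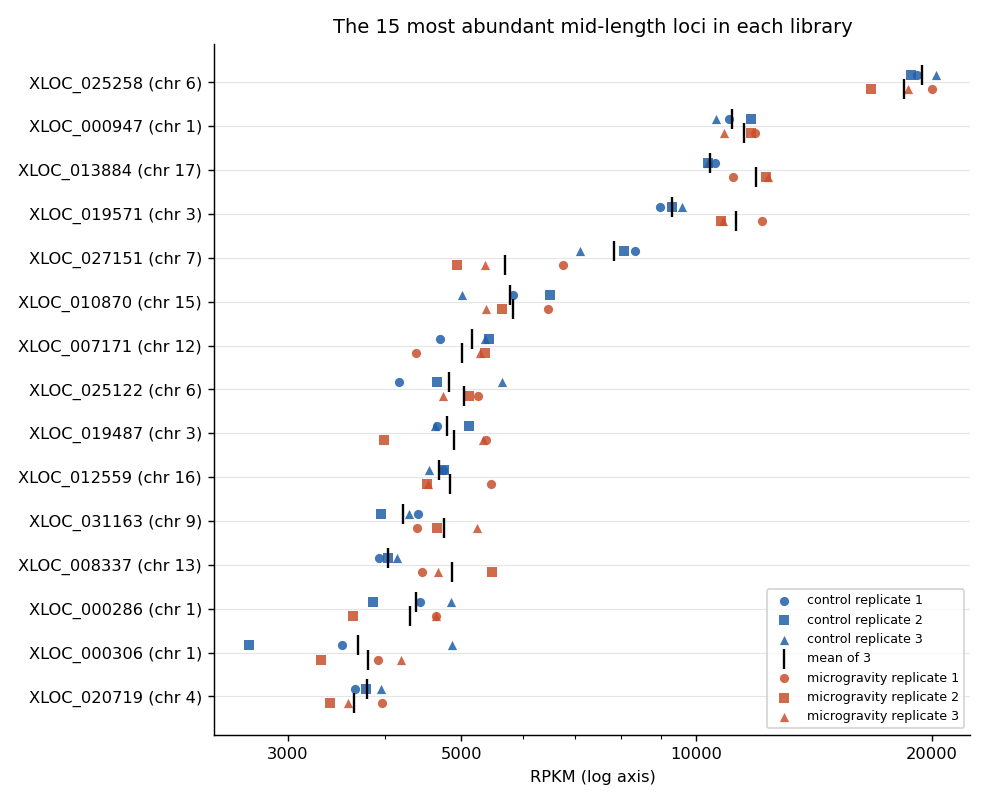
RPKM (log axis) of the 15 most abundant mid-length loci, 1 row each with its chromosome; blue symbols are the 3 control libraries, orange symbols the 3 microgravity libraries, and black bars the group means. XLOC_025258 stands alone between 16715 and 20272 RPKM, and the groups separate at XLOC_013884, XLOC_019571, XLOC_027151 and XLOC_008337.

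Rank was most stable at the top of the set. Of the 4 loci with the highest means, 4 were among the 4 highest in every library. For the highest 10 this held for 6, for the highest 15 for 13, and for the highest 50 for 40. Ranks are counted within the 294 loci, with 1 the most abundant. The means include the libraries in which the ranks are counted, so agreement between them is favoured by construction. The median distance between a locus's best and worst rank was 4 places in the highest 15, and 21, 57 and 72 places in the highest, middle and lowest tertile of the set (98 loci each). Levels lie closer together lower in the list (medians of 1814, 829 and 479 RPKM). The median SD within groups of log2(RPKM + 1) was 0.159, 0.198 and 0.201 in the same order. What part each has in the longer rank ranges was not tested. The median ratio of the highest to the lowest value moved less, from 1.36 to 1.44 and 1.503.

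**Figure D2:**
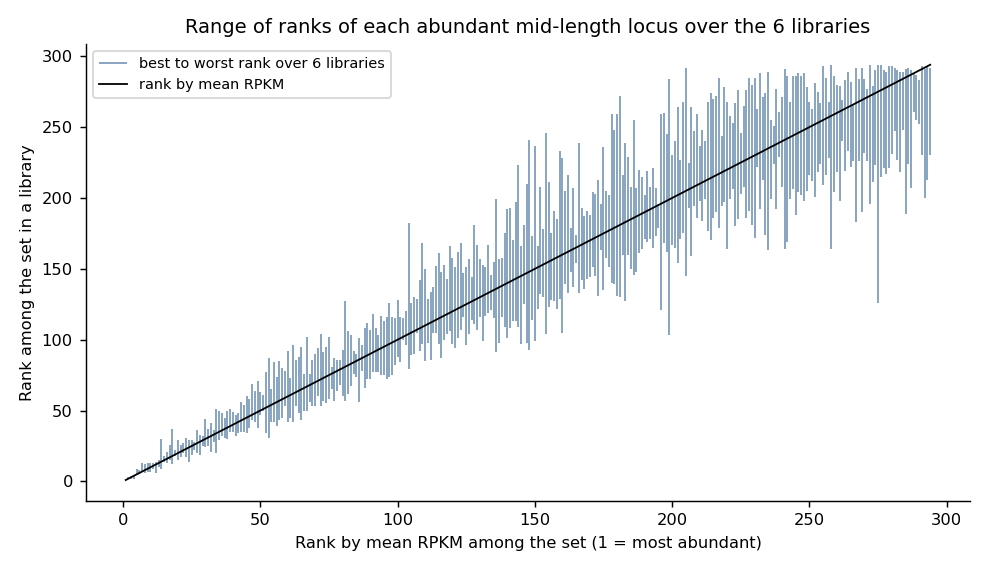
Rank of each of the 294 loci in single libraries (vertical axis, 1 is the most abundant) against its rank by mean RPKM; each vertical line runs from the best to the worst rank over the 6 libraries and the black line marks equal ranks. Lines are short at the left and lengthen to the right, up to 181 places for XLOC_021934.

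Over the set, libraries ordered the loci much alike. Spearman's rho of RPKM across the 294 loci ran from 0.934 to 0.939 in the 3 control pairs, from 0.912 to 0.924 in the 3 microgravity pairs and from 0.865 to 0.936 in the 9 pairs between groups. The mean over the 15 pairs was 0.918. These are correlations across loci, which are not independent replicates, so they carry no p. The 5 pairs with microgravity replicate 2 ran from 0.865 to 0.917, and the 10 pairs without it from 0.913 to 0.939. Microgravity replicate 1 reached 0.926 to 0.936 with the control libraries, microgravity replicate 3 0.913 to 0.923 and microgravity replicate 2 0.865 to 0.901. For the 2090 mid-length loci under 400 RPKM, rho ran from 0.791 to 0.852; the ranges of level of the 2 sets differ, and rho depends on that range.

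No abundant mid-length locus was at 0 in any library. Values ran from 241 RPKM, for XLOC_007938 in microgravity replicate 2, to 20272 RPKM. In all 6 libraries 233 of the 294 loci were at or above 400 RPKM, and single libraries held from 262 (microgravity replicate 2) to 282 (microgravity replicate 1) of them at that level. Just inside the limit were XLOC_010030 (402 RPKM), XLOC_011329 (403 RPKM) and XLOC_019874 (404 RPKM). Just outside it were XLOC_025277 (398 RPKM), XLOC_000067 (397 RPKM) and XLOC_009571 (396 RPKM). Of the mid-length loci under the limit, 64 reached 400 RPKM in at least 1 library. By the rule on the mean, none of them could reach it in all 6. Membership near the limit is therefore loose against the spread between libraries.

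Spread between libraries was small for most loci of the set. The highest of the 6 values was less than 1.5 times the lowest for 180 loci (61.2%) and less than 2 times for 271 (92.2%). Over all 3307 loci these shares were 16.8% and 45.4%, and over the mid-length loci under 400 RPKM 10.4% and 38.1%. The median SD within groups of log2(RPKM + 1) was 0.19, against 0.38 over the 3301 loci tested and 0.42 for the mid-length loci under 400 RPKM. Spread fell as level rose across the whole table, and level chose this set. What part counting error has in it was not tested, since reads per locus are unknown.

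**Figure D3:**
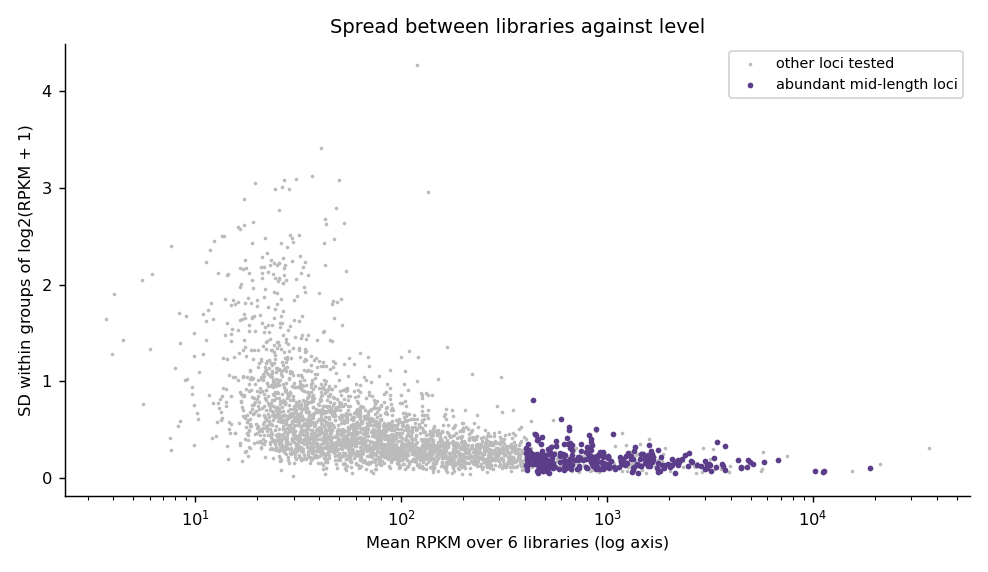
SD within groups of log2(RPKM + 1) (vertical axis) against mean RPKM over the 6 libraries (log axis), 1 point per locus; purple points are the 294 abundant mid-length loci, grey points the other loci tested. Grey points reach SDs above 3 below 100 RPKM, and all but a few purple points lie below 0.5.

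The least variable loci kept nearly the same value inside a group. XLOC_027575 on chromosome 7 (50518654 to 50520998) had 2276, 2339 and 2279 RPKM in control and 1997, 1855 and 2028 RPKM in microgravity. XLOC_026743, also on chromosome 7 (24998044 to 25000893), had 1541, 1466 and 1501 RPKM in control and 1387, 1275 and 1304 RPKM in microgravity. Another locus of that chromosome, XLOC_027385 (14889549 to 14909978), had 562, 543 and 576 RPKM in control and 484, 455 and 502 RPKM in microgravity. All control values lay above all microgravity values at these 3 loci, which a small spread favours, and none passed the adjusted threshold (limma, adjusted p = 0.626, 0.685 and 0.686). The other of the 4 least variable loci, XLOC_019488 on chromosome 3 (8732518 to 8736986), had overlapping groups between 429 and 482 RPKM.

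At the other end were the 4 loci with the largest spread inside the groups. XLOC_019039 on chromosome 3 (48411990 to 48414772) had 508, 249 and 245 RPKM in control and 252, 405 and 949 RPKM in microgravity, a 3.87-fold range with the highest value in microgravity replicate 3. XLOC_021934 on chromosome 4 (142443558 to 142490190) stood at 1108 RPKM in control replicate 1 and between 348 and 686 RPKM in the other libraries. XLOC_019118 on chromosome 3 (77924673 to 77962928) ran from 384 RPKM in microgravity replicate 2 to 951 RPKM in microgravity replicate 1. XLOC_013525 on chromosome 17 (4501284 to 4534919) had its extremes in the same 2 libraries, at 567 and 1331 RPKM. In each of these 4 loci the groups overlapped, and the spread inside a group exceeded the difference between groups.

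Microgravity replicate 2 gave the lowest of the 6 values for 100 of the 294 loci (34.0%), against 23.4% of all loci in the tables. The other libraries gave the lowest value for 28 to 56 loci. With libraries rescaled after removal of the ribosomal RNA region, which took its largest share in that library, the count was 80 (27.2%), and with equal medians 93 (31.6%). The highest value came most often from microgravity replicate 1 (67 loci, 22.8%, against 19.1% of all loci in the tables). After removal of the ribosomal RNA region it came most often from microgravity replicate 2 itself (64 loci, 21.8%). With equal medians it came most often from control replicate 2 (58 loci, 19.7%). Shares of all loci under these 2 scalings are not given here. The median of microgravity replicate 1 over the set was 830.3 RPKM, within the 758 to 845 RPKM of the 6 libraries.

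Span was no guide to level inside the set. Spans ran from 2048 to 49449 bp with a median of 12056 bp, against 9148 bp for the mid-length loci under 400 RPKM. The set took 9.99% of mid-length loci from 2000 to under 5000 bp, 10.1% of those from 5000 to under 10000 bp, 14.9% of those from 10000 to under 20000 bp and 14.7% of the longer ones. Across the 294 loci Spearman's rho of span and mean RPKM was -0.016. It was 0.13 across all 2384 mid-length loci with coordinates of their own, where level was not cut at 400 RPKM. The 2 shortest, XLOC_009611 on chromosome 14 (90296034 to 90298082) and XLOC_018858 on chromosome 2 (170287317 to 170289391), averaged 1601 and 2987 RPKM. The 2 longest, XLOC_027037 on chromosome 7 (90278503 to 90327952) and XLOC_006439 on chromosome 12 (27282062 to 27330616), averaged 1091 and 1174 RPKM. The span includes any introns, and transcript lengths were not analysed here.

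Loci of the set lay on all 19 autosomes and on the X chromosome. Their share of a chromosome's mid-length loci ran from 9.70% on chromosome 10 (13 of 134) to 17.5% on chromosome 19 (10 of 57), and was 13.1% on the X chromosome (11 of 84). Chromosome 1 held the most, 23, and chromosome 6 the largest part of the summed RPKM of the set, 12.0%, with XLOC_025258 alone at 4.83%. Of the 50 most abundant, 6 lay on chromosome 2 and 5 on chromosome 1, while chromosomes 11 and 19 had 0. None of the 294 loci overlapped another listed locus, against 8.98% of all loci in the tables. Loci with shared coordinates, which overlap by definition, had been left out of the set by the rule.

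Close neighbours were rare, and 1 pair lay within 5000 bp. On the X chromosome, XLOC_032923 (91184610 to 91212496) ended 1823 bp before XLOC_032572 (91214319 to 91220811). They stood at 794 and 2227 RPKM. On chromosome 14, XLOC_009629 (102835282 to 102855965, 521 RPKM) and XLOC_010473 (102863669 to 102866124, 905 RPKM) were 7704 bp apart. On chromosome 6, XLOC_025735 (78968580 to 78974860, 1049.6 RPKM) and XLOC_026355 (78984004 to 78986343, 883 RPKM) were 9144 bp apart. XLOC_019487, the ninth most abundant, and XLOC_019488 lay 17186 bp apart on chromosome 3 with means of 4851 and 460.05 RPKM. Whether neighbours are parts of 1 transcript was not examined.

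Microgravity was then compared with control over the whole table. None of the 294 loci passed the adjusted threshold (limma on log2(RPKM + 1), Benjamini-Hochberg over the 3301 loci tested, threshold 0.05; lowest adjusted p of the set 0.497). The background was the same, with 0.0% of all loci called. All 294 loci entered the test. Log2 differences lay between -0.74 and 0.74, 143 above 0 and 151 below, with a median of -0.0086, against -0.0037 over all loci tested. The groups' means were thus within 2-fold for every locus of the set, and within 1.5-fold for 288 of them (98.0%, against 78.1% of all loci tested).

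Intervals were narrow enough to bound most of these differences. The 95% interval of the log2 difference lay within 2-fold in both directions for 286 of the 294 loci (97.3%), against a background of 48.0%, and within 1.5-fold for 200 (68.0%, background 13.8%). Each interval is for a single locus, is not adjusted over loci, and rests on the spread between these libraries. Spread falls with level throughout the table, and level chose these loci, so nothing particular to them is read from the excess over the background.

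At an unadjusted p under 0.05, 29 loci of the set differed (9.86%, background 7.91%), 15 with higher values in microgravity (background 4.82%) and 14 with lower values (background 3.09%). With median scaling the split was 10 higher and 24 lower. The count depended on how limma moderated the variance: without trend and robust moderation it was 6 (2.04%, background 7.45%), 4 higher and 2 lower. It was 19 without control replicate 2. The lower ones numbered 8 with control replicate 2 or microgravity replicate 2 left out, and 27 with microgravity replicate 1 left out. Backgrounds for median scaling and for fits without a library are not given here. Those shifts are therefore not read as particular to the set. Values of the 2 groups did not overlap at 43 loci of the set (14.6%, background 13.6%), 22 with microgravity higher (background 7.39%) and 21 with it lower (background 6.24%). The shares without overlap lie near the background.

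**Figure D4:**
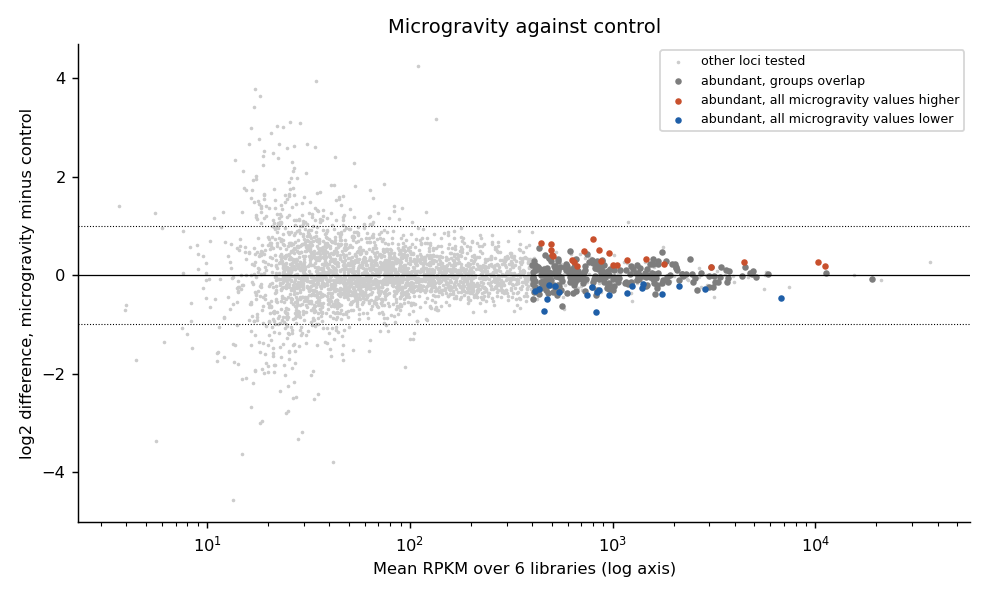
Log2 difference, microgravity minus control (vertical axis), against mean RPKM (log axis), 1 point per locus; orange and blue points are abundant mid-length loci with all microgravity values above or below all control values, dark grey points those with overlapping groups, light grey points the other loci tested, and dotted lines mark 2-fold. All 294 loci lie between the dotted lines, from -0.74 to 0.74.

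The loci with the smallest p and higher values in microgravity were of middle or low rank within the set, with 1 exception. XLOC_025838 on chromosome 6 (105431000 to 105438721) had 556, 774 and 472 RPKM in control and 1166, 791 and 1025 RPKM in microgravity. The gap between the groups was narrow, 774 against 791 RPKM, and the log2 difference was 0.74 ± 0.20 (SE; limma, adjusted p = 0.498). XLOC_004973 on chromosome 11 (20180681 to 20193287) had 391, 397 and 368 RPKM in control and 502, 561 and 745 RPKM in microgravity. The log2 difference came to 0.63 ± 0.18 (SE; limma, adjusted p = 0.498). Here the control libraries were close together and microgravity replicate 3 was the highest.

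XLOC_006869 on chromosome 12 (36356739 to 36362237) had 391.5, 266 and 396 RPKM in control and 512, 590 and 520.4 RPKM in microgravity. XLOC_014766 on chromosome 18 (68511109 to 68525612) had 468, 393 and 369 RPKM in control and 627, 550 and 581 RPKM in microgravity. XLOC_002801 on chromosome 10 (110509011 to 110518040) had 813, 790 and 817 RPKM in control and 1193, 1189 and 948 RPKM in microgravity. Groups did not overlap at these 3 loci, with log2 differences of 0.64, 0.52 and 0.45 and limma adjusted p of 0.498 each. The exception in rank was XLOC_019571, number 4 by level, whose control mean was 9301 ± 297 RPKM (SD, n = 3) and whose microgravity mean was 11236 ± 792 RPKM (SD, n = 3).

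Among loci with lower values in microgravity, XLOC_027151 came first. Its values, given above, were lowest in microgravity replicate 2. XLOC_019410 on chromosome 3 (138789547 to 138810569) had 1010.1, 872 and 1208 RPKM in control and 765, 462 and 644 RPKM in microgravity. Its log2 difference of -0.74 ± 0.20 (SE; limma, adjusted p = 0.498) was the lowest of the set. XLOC_007938 on chromosome 13 (44216437 to 44220378) had 571, 716 and 423 RPKM in control and 399, 241 and 399.9 RPKM in microgravity. Both had their lowest value in microgravity replicate 2.

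XLOC_006988 on chromosome 12 (76846499 to 76865788) had 1039, 1126 and 1101 RPKM in control and 905, 769.6 and 796 RPKM in microgravity. XLOC_017024 on chromosome 2 (106780825 to 106799751) had 582, 505 and 582 RPKM in control and 450.3, 339.7 and 401 RPKM in microgravity. XLOC_023936 on chromosome 5 (115258202 to 115263991) had 1798, 2357 and 1827 RPKM in control and 1496, 1495 and 1580.0 RPKM in microgravity, where the control libraries carried the spread. All 6 loci with lower values had their lowest value in microgravity replicate 2; without it their log2 differences lay between -0.54 and -0.36, and that of XLOC_007938 was -0.48 in place of -0.72. Groups did not overlap at any of the 6, and limma adjusted p for XLOC_006988, XLOC_017024, XLOC_007938 and XLOC_023936 was 0.586 each. These 12 loci were chosen by smallest p in this comparison, so their separation is a description.

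**Figure D5:**
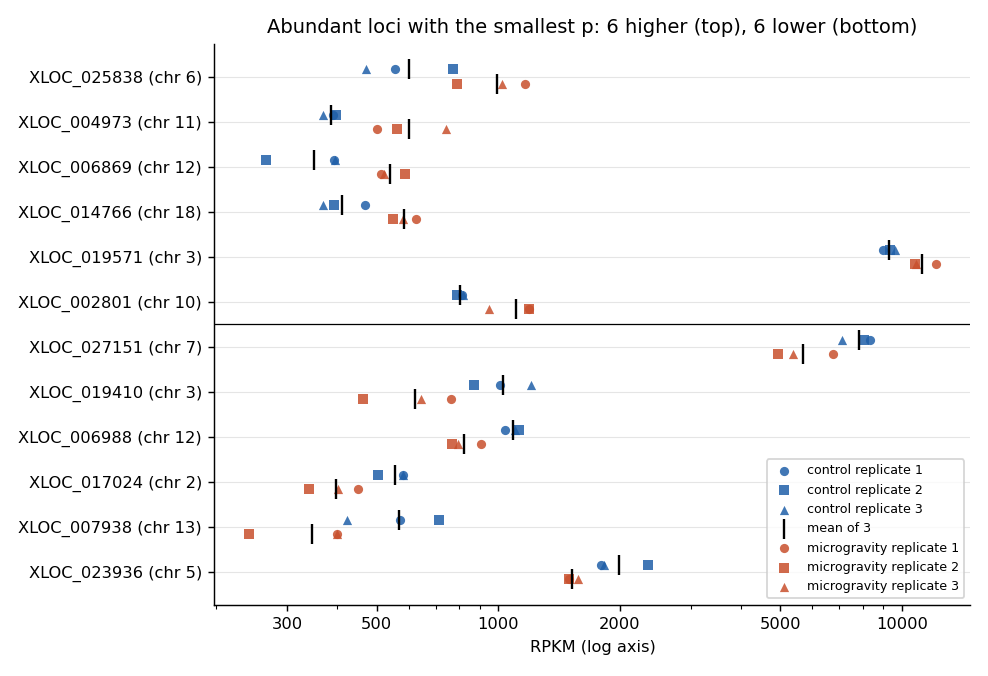
RPKM (log axis) of the 12 abundant mid-length loci with the smallest unadjusted p, 6 with higher values in microgravity above the line and 6 with lower values below it; blue symbols are control libraries, orange symbols microgravity libraries, and black bars the group means. Groups do not overlap in any row, and all rows but XLOC_019571 and XLOC_027151 lie at or below 2357 RPKM.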

How the data were processed

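The deposited values are RPKM, 1 per lncRNA locus and library, per the file headers. Coordinates are in mm9, named by the submitters' processing notes. Assembler, aligner, counting method, strand use and the scaling total: not given in the sources used here. Groups and replicate numbers came from the titles. The 294 loci, the lists and the tests were chosen with earlier results of these data known. The 3301 loci that reached 1 RPKM in 3 or more libraries were compared on the log2(RPKM + 1) scale (limma 3.58.1, R 4.3.3). The model had group as its one term, a trend of variance with level and robust moderation, and was two-sided, with Benjamini-Hochberg adjustment over all of them. The fit was tested on simulated data with planted changes of 2-fold or more, larger than any difference in the set. That test does not cover smaller changes. Fold changes on that scale slightly understate changes of low loci. Values with 1 number per library were compared by exact permutation (scipy 1.17.1). Figures were drawn with matplotlib 3.10.9. No 2 libraries shared a value above 0 at the same locus. Loci named with values were the 15 of highest mean, 6 of smallest p in each direction, 4 of smallest and 4 of largest SD, 3 on either side of the limit, the 2 shortest, the 2 longest and the 4 closest pairs. Alternatives covered pseudocount, filter, scaling, moderation, weights, the limit on level, the replicate block and single libraries.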

Additional observations from a re-analysis of the deposited data

How the results depend on the processing

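The count of 0 called loci held in all 16 alternative fits, at limits of 300 and 600 RPKM and at an adjusted p under 0.1; the lowest adjusted p of any of the 294 loci was 0.261, without microgravity replicate 1. A replicate block also gave 0 calls, with 28 loci at unadjusted p under 0.05. Deviations of libraries with the same number correlated at 0.017, -0.0037 and -0.017, and 1 of 3 control and 1 of 3 microgravity libraries correlated best with its own number, so no pairing was assumed. Loci at unadjusted p under 0.05, 29 in the report, numbered 19 to 42 without single libraries (11 to 21 higher, 8 to 27 lower) and 6 without trend and robust moderation (4 higher, 2 lower); the lower ones were 24 with median scaling. Fits without 1 library found 15 to 24 of the same 29. Loci whose groups did not overlap were 67 to 93 without single libraries (34 to 44 higher, 31 to 59 lower), a rise that fewer samples bring by construction. Loci bounded within 2-fold were 278 to 288 without single libraries and 270.0 without trend and robust moderation. Shares over all loci under alternatives that rescale or leave out a library are not given here. Shifts of these counts are therefore not read as particular to the set. The difference in share of summed RPKM ran from -0.69 to 0.086 percentage points without single libraries and was 0.024 with scaling without the ribosomal RNA region. Mean rank correlation was 0.913 to 0.929 without single libraries, and Pearson's r of log2 values was 0.953. Of the 46 named loci, 30 kept the sign of their log2 difference in every fit. With quantile normalization it turned to 0.059 for XLOC_025258, -0.094 for XLOC_000947, -0.016 for XLOC_012559 and 0.043 for XLOC_018858, and with median scaling to -0.017 for XLOC_010870 and -0.015 for XLOC_019487; the cause was not tested. Without single libraries it ran from -0.12 to 0.090 for XLOC_000286, -0.13 to 0.30 for XLOC_000306, -0.11 to 0.050 for XLOC_007171, -0.096 to 0.032 for XLOC_010473, -0.084 to 0.10 for XLOC_010870, -0.048 to 0.089 for XLOC_012559, -0.20 to 0.42 for XLOC_013525, -0.081 to 0.029 for XLOC_018858, -0.48 to 0.17 for XLOC_019118, -0.058 to 0.16 for XLOC_019487, -0.18 to 0.21 for XLOC_019874, -0.62 to 0.045 for XLOC_021934, -0.027 to 0.19 for XLOC_025122 and -0.086 to 0.090 for XLOC_032572. These are loci with small differences or large spread. Depth per library is unknown.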

Other observations

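Chromosome 7, singled out after its values were seen, held 13 abundant mid-length loci with a median log2 difference of -0.19 between microgravity and control, against -0.0086 over the 294 loci. Of these 13, 9 had lower means in microgravity, 4 of them with groups that did not overlap (XLOC_027151, XLOC_027575, XLOC_026743 and XLOC_027385; 6.24% of all tested loci were lower without overlap), and 1 was lower at unadjusted p under 0.05 (3.09% of all tested loci). The highest log2 differences among the 13 were 0.43 for XLOC_027554 (37411565 to 37425710, mm9), with a control mean of 633 ± 153 RPKM (SD, n = 3) and a microgravity mean of 854 ± 209 RPKM (SD, n = 3), and 0.28 for XLOC_026749 (25233334 to 25236353), with means of 798 ± 82.8 and 972 ± 117 RPKM (SD, n = 3). The median of the 13 lay between -0.22 and -0.18 over all fits run. Those fits reuse the same libraries and loci, and these values chose the chromosome, so the range is no separate support. No allowance was made for the choice among chromosomes. The 109 other tested loci of chromosome 7 had a median of -0.090. Chromosome 12, picked for its count, had 18 abundant mid-length loci with a median log2 difference of 0.0074. Groups did not overlap at 6 of them, 2 higher and 4 lower in microgravity (7.39% and 6.24% of all tested loci).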
